A study of Homo sapiens with 12 samples.

Results

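PSMD10, TBCA, TMEM30A and DPM1 are 4 of the 58735 genes in the deposited tables, and they were chosen by their mean FPKM in epirubicin-resistant SK/EPI cells, which was more than halved after an siRNA against BCRP. BCRP is the drug efflux pump encoded by ABCG2. Since the siRNA comparison chose them, it is described below for these genes and was not tested. The parental SK-BR-3 cells are a long-established line from a human breast tumour with amplified ERBB2, and SK/EPI was derived from it by stepwise, long exposure to rising doses of the anthracycline epirubicin. The series held 12 RNA libraries in 4 groups of 3, which were untreated SK-BR-3, untreated SK/EPI, SK/EPI with a control siRNA (SK/EPI-siNC) and SK/EPI with the BCRP siRNA (SK/EPI-siBCRP). Both siRNAs were given for 48 h with the transfection reagent Lipofectamine RNAiMax, so the SK/EPI-siNC cells carried a transfected siRNA too. The labels name SK-BR-3 as the cell line of all 12 libraries and do not say whether SK/EPI is a clone, and nothing but the word triplicate ties the 3 libraries of a group to separate cultures. P-values below therefore measure the spread between these libraries, which may be technical.

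The 4 genes work in unrelated parts of the cell. PSMD10 encodes gankyrin, an ankyrin-repeat chaperone that helps to assemble the base of the 19S regulatory particle of the proteasome by holding the ATPase PSMC4, and that also binds the retinoblastoma protein, CDK4 and the ubiquitin ligase MDM2. TBCA encodes tubulin cofactor A, which takes beta-tubulin from the chaperonin CCT and keeps it until cofactor D joins it to alpha-tubulin. TMEM30A encodes CDC50A, the subunit without which most P4-ATPases cannot leave the endoplasmic reticulum or flip phosphatidylserine to the inner side of the plasma membrane. DPM1 encodes the catalytic subunit of dolichol phosphate mannose synthase, which makes the mannose donor for N-glycan precursors, GPI anchors and O-mannosylation. An siRNA is a short RNA duplex whose guide strand is loaded into Argonaute. A guide that pairs along its whole length directs cleavage of the mRNA, and one that pairs only through its seed, bases 2 to 8, can lower mRNAs in the manner of a microRNA, mostly through 3' UTR sites.

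The study lists a pair of BCRP siRNAs and names siBCRP #1 in the title of its table of RNA-seq results, while the labels of the libraries do not say which was used. Its strands are shown with bases 2 to 8 in capitals, since these are the letters searched for in the mRNAs of the 4 genes.
siBCRP #1 lower strand, taken as the guide: aUAACCAGcugauucaaaguauccc
siBCRP #1 upper strand, taken as the passenger: gGGAUACUuugaaucagcugguuau
The guide pairs with its 25-base target in the coding sequence of ABCG2, at bases 1368 to 1392 of the 4479-base transcript ENST00000237612.7, over 25 of 25 bases, and the target crosses an exon junction.
ABCG2 target: gggatactttgaatcagCTGGTTAt

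Each of the 4 genes held the 7 letters CTGGTTA, the complement of the guide's seed, at 1 position of the 3' UTRs annotated in GENCODE 29 on GRCh38. All 4 genes lie on the minus strand, and each site is shown as mRNA, in DNA letters, in the 25-base window opposite the guide with the seed match in capitals. The windows are shown because the search placed the seed match in them.
PSMD10, chrX:108084724-108084748: ttcttctatattgaattCTGGTTAa
TBCA, chr5:77691297-77691321: aatgtgattgtttttatCTGGTTAc
TMEM30A, chr6:75256017-75256041: ctttcgaatgctgatatCTGGTTAg
DPM1, chr20:50935070-50935094: ttaaacatgaaagaagcCTGGTTAc

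In the 1 mRNA taken for each gene, the match lay 55 to 243 bases after the stop codon, in the last exon. Other isoforms can differ, and a TBCA isoform with a 3' UTR of 1881 bases holds the same site. The distance from the stop codon was 243 bases in PSMD10 (exon 5 of 5), 114 in TBCA (exon 4 of 4), 78 in TMEM30A (exon 7 of 7) and 55 in DPM1 (exon 9 of 9). Only PSMD10 had an A opposite base 1 of the guide, which makes an 8-base match (CTGGTTAA). Outside the seed the windows paired little. Of 25 bases, 9 paired in PSMD10, 12 in TBCA, 9 in TMEM30A and 10 in DPM1, and the longest unbroken run of complement to the guide anywhere in the mRNA was 8, 7, 8 and 7 bases. Of the 12947 tested genes with an annotated 3' UTR, 63.0% held a run of 8 or more and 94.6% a run of 7 or more, so the members held no longer stretch of the ABCG2 target.

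**Figure D1:**
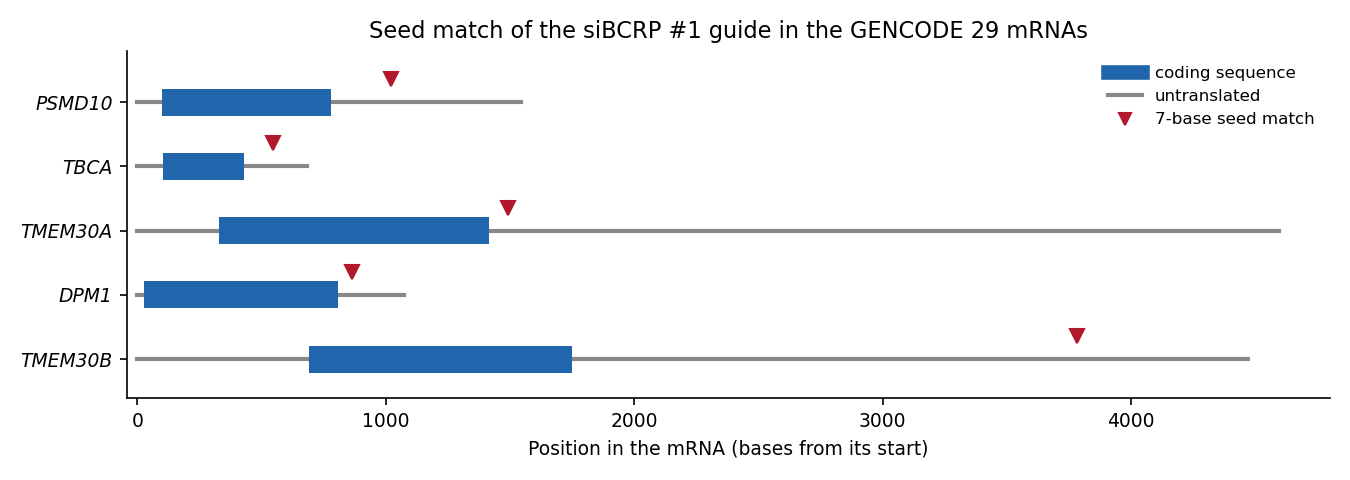
GENCODE 29 mRNAs of the 4 genes and of TMEM30B, the paralog of TMEM30A, drawn to scale in bases from the mRNA start, with the coding sequence as a blue box, untranslated sequence as a grey line and the 7-base seed match of the siBCRP #1 guide as a red triangle. In the drawn mRNAs of the 4 members the match sits 55 to 243 bases after the stop codon, and in TMEM30B it sits 2032 bases after it.

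Isoforms differ in whether they keep the site. It was present in 2 of 5 annotated isoforms of PSMD10 with a stop codon and a 3' UTR, in 5 of 7 of TBCA, in 3 of 3 of TMEM30A and in 3 of 3 of DPM1. The main PSMD10 mRNA (ENST00000217958.7, 1546 bases, 226 codons) has a 3' UTR of 767 bases, and the 3 PSMD10 isoforms without the site have 3' UTRs of 131 to 290 bases. The mRNA of TMEM30A (ENST00000230461.10, 4594 bases, 361 codons) has by far the longest 3' UTR of the 4, 3178 bases, and holds 5 copies of the shorter match to bases 2 to 7, TGGTTA. TBCA (ENST00000380377.8, 683 bases, 108 codons) and DPM1 (ENST00000371588.9, 1075 bases, 260 codons) are short mRNAs with 3' UTRs of 252 and 265 bases. The tables give 1 value per gene, so levels of single isoforms could not be read from them.

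In SK/EPI-siNC cells the 4 mRNAs ranged from moderate to abundant. Levels are given in FPKM, the fragments on a gene divided by its exon length in kilobases and by library size, so that genes can be compared. PSMD10, on chromosome X from 108084207 to 108091618 (ENSG00000101843), measured 17.1, 15.9 and 15.4 FPKM with the control siRNA (replicates 1, 2 and 3). With the BCRP siRNA it measured 3.43, 3.47 and 2.86 FPKM. These are 743 to 958 reads per library against 136 to 192. The lowest control library was over 4 times the highest library with the BCRP siRNA, and the mean was 3.25 ± 0.340 FPKM (SD, n = 3) after siBCRP against 16.1 ± 0.875, or 20.2% of the control.

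TBCA, on chromosome 5 from 77691166 to 77868780 (ENSG00000171530), was the most even of the 4 between control libraries, at 30.3, 30.5 and 30.7 FPKM, and at 6.96, 6.70 and 7.10 FPKM after siBCRP. Its mean was 6.92 ± 0.204 FPKM against 30.5 ± 0.166 (SD, n = 3 each), or 22.7% of the control. TMEM30A, on chromosome 6 from 75252924 to 75284968 (ENSG00000112697), was at 20.9, 21.9 and 21.5 FPKM in the control libraries and at 5.95, 5.93 and 5.42 FPKM after siBCRP. That is 5.77 ± 0.300 FPKM against 21.4 ± 0.529 (SD, n = 3 each), or 26.9% of the control. The libraries of both genes were far apart between the groups and close together within them.

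DPM1, on chromosome 20 from 50934867 to 50958555 (ENSG00000000419), was the most abundant of the 4 and kept the largest share of its mRNA. It was at 84.0, 80.2 and 76.9 FPKM in the control libraries and at 36.2, 33.1 and 32.5 FPKM after siBCRP, from 758 to 898 reads per library against 1834 to 2314. Its mean after siBCRP, 33.9 ± 2.01 FPKM (SD, n = 3), was 42.2% of the control mean of 80.4 ± 3.56. In none of the 4 genes did the groups overlap, in the comparison that chose them. How many of all tested genes were without overlap there was not counted. On the log2(FPKM + 1) scale, which understates changes of low genes, the differences between siBCRP and siNC were -2.01 for PSMD10, -1.99 for TBCA, -1.73 for TMEM30A and -1.22 for DPM1.

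**Figure D2:**
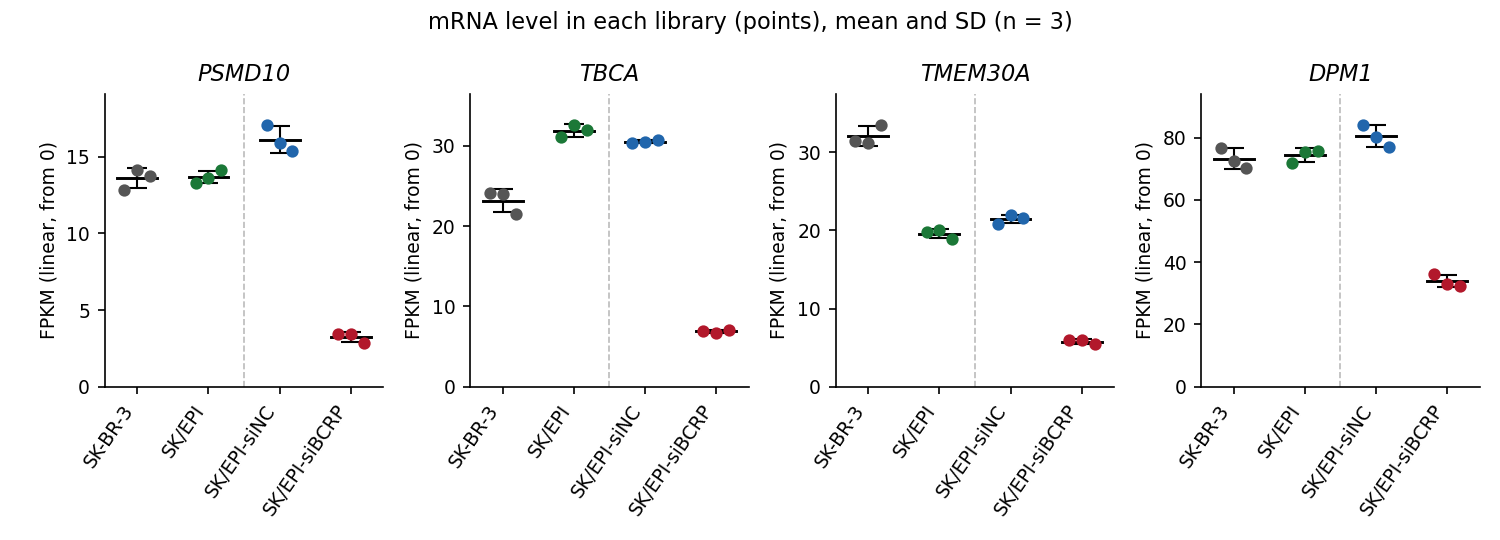
mRNA level in FPKM (linear axes from 0) of the 4 genes in each library (points), with the mean and SD of each group of 3, where the dashed line separates the tables, which were normalized separately. In every panel the 3 SK/EPI-siBCRP libraries lie below all others, at 2.86 to 3.47 FPKM for PSMD10 and 32.5 to 36.2 FPKM for DPM1.

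The rule drew on the far tail of this comparison. Of the 16298 genes tested after siBCRP, 271, or 1.66%, had a mean FPKM more than halved, and among the 4483 with at least 10 FPKM in SK/EPI-siNC cells 46 did. Ranked by the remaining share in those 4483 genes, PSMD10, TBCA and TMEM30A stood at places 4, 5 and 6 and DPM1 at place 22. ABCG2, the target, was at place 1 with 9.33% left, going from 33.0 ± 0.673 to 3.08 ± 0.345 FPKM (SD, n = 3 each). The genes nearest to the limit were SPTSSA with 49.4% and HIST1H2BC with 49.6% of the control inside it, and GPRC5A with 50.6% and TERF2IP with 50.9% outside it. All 4 members passed the filter on low values in both tables. Of the 16298 genes, 3052, or 18.7%, were lower and 3163, or 19.4%, were higher after siBCRP at an adjusted p-value under 0.05 (limma, Benjamini-Hochberg).

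The comparison of SK/EPI with SK-BR-3 cells played no part in the choice of the genes and was tested. It sets the resistant line beside its parent, both without any siRNA. With a single resistant line, resistance cannot be told apart from other differences between the lines. The 4 genes differed in direction. TBCA was higher in SK/EPI cells, at 31.0, 32.6 and 32.0 FPKM compared with 24.1, 23.9 and 21.5 in SK-BR-3 cells. TMEM30A was lower, at 19.8, 19.98 and 18.9 FPKM compared with 31.4, 31.2 and 33.5. In both genes the libraries of the lines did not overlap, and the share of all tested genes without overlap was not counted.

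TBCA rose by 0.45 on the log2 scale (standard error 0.05, limma adjusted p = 5.9e-05) and TMEM30A fell by 0.68 (standard error 0.04, limma adjusted p = 1.4e-06). PSMD10 was at 12.9, 14.1 and 13.8 FPKM in SK-BR-3 cells and at 13.3, 13.6 and 14.1 in SK/EPI cells, and its groups overlapped. Its log2 difference of 0.01 (standard error 0.04) did not pass the test (limma adjusted p = 0.85). DPM1 overlapped as well, at 76.7, 72.6 and 70.2 FPKM in SK-BR-3 cells and 71.7, 75.3 and 75.8 in SK/EPI cells. Its difference of 0.02 (standard error 0.04, limma adjusted p = 0.65) passed the test only under other scalings, at 0.11 with an adjusted p of 0.0341 where libraries were scaled by their reads on genes and of 0.0291 with limma's voom. One member was thus called higher and 1 lower, beside a background of 37.9% of 15823 tested genes called higher and 37% called lower.

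Over all 4 groups, SK/EPI-siBCRP was the lowest for each gene, and the order of the others differed between genes. PSMD10 was highest in SK/EPI-siNC cells, and SK/EPI and SK-BR-3, next in order, overlapped. DPM1 had the same order, with SK/EPI and SK-BR-3 again overlapping. TBCA ran from SK/EPI through SK/EPI-siNC to SK-BR-3, and TMEM30A from SK-BR-3 through SK/EPI-siNC to SK/EPI, with no overlap between neighbours. Untransfected and siRNA-treated cells stand in tables normalized separately, so this order across them was not tested.

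Copies of the genes elsewhere in the genome could take or lend reads. PSMD10 has 3 annotated processed pseudogenes, PSMD10P1 on chromosome 20 (90.4% identical over 691 bases), PSMD10P2 on chromosome 3 (91.9%) and PSMD10P3 on chromosome 13 (94.0%). They held at most 16, 2 and 1 reads in any library. TBCA has TBCAP1 on chromosome X (97.5% identical over 327 bases), TBCAP2 on chromosome 1 (87.7%) and TBCAP3 on chromosome 4 (81.0%), with at most 26, 0 and 3 reads, and 1 annotated transcript of EIF4E on chromosome 4 is 80.4% identical to it over 240 bases. The copies resemble the coding part of the mRNA, and none reached the seed match.

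Reads on these copies came to 0.475% to 9.33% of the reads on PSMD10 and its copies together, and to 0.641% to 1.87% for TBCA. The highest PSMD10 share belonged to the SK/EPI-siBCRP library with the fewest PSMD10 reads, 136, beside 14 on PSMD10P1. TBCAP1, the closest copy of TBCA, was at 3.49, 2.09 and 2.79 FPKM in SK/EPI-siNC cells and at 0.471, 0.272 and 1.11 FPKM after siBCRP, from 26, 13 and 18 reads against 3, 2 and 7. It passed the filter on low reads only through the control libraries, so its values are given without a test. PSMD10P1 was at 0.621 ± 0.357 FPKM in the control and 0.708 ± 0.316 after siBCRP (SD, n = 3 each), with 5 to 16 reads against 7 to 14. How reads with several positions were counted is not given in the sources used here, so reads of the pseudogenes and their parents may be interchanged. For TMEM30A and DPM1, no other annotated transcript matched over 100 bases or more.

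TMEM30B, the paralog that can serve some P4-ATPases in place of TMEM30A, is a gene of its own on chromosome 14 from 61277370 to 61281840. Its 3' UTR held the 8-base match, 2032 bases after the stop codon, in a window with 12 of 25 paired bases.
TMEM30B, chr14:61278053-61278077: gttaaagtattctgattCTGGTTAa
It was at 14.1, 14.2 and 13.6 FPKM in SK/EPI-siNC cells and at 4.67, 4.37 and 4.40 FPKM after siBCRP, with no overlap. The difference was -1.45 on the log2 scale (standard error 0.04, limma adjusted p = 1.4e-06), which left 32.1% of the control and place 9 among the 4483 ranked genes. Both CDC50 subunits of these cells were thus lower after siBCRP, while between the untreated lines they went opposite ways, TMEM30B from 9.95 ± 0.300 in SK-BR-3 to 15.5 ± 0.908 FPKM in SK/EPI (SD, n = 3 each, log2 fold change 0.59, limma adjusted p = 1.2e-05). The third family member, TMEM30CP, had at most 2 reads in any library.

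The 7-base match is not rare. It was found in 1559, or 12%, of the 12947 tested genes with an annotated 3' UTR, and in 4 of the 4 members. The members were chosen for a strong fall after siBCRP, so all tested genes are not a like base for them. Of 44 more than halved genes with at least 10 FPKM and an annotated 3' UTR, members included and ABCG2 left out, 21 held it (47.7%). The 8-base match was found in 3.92% of the 12947 genes and 1 member, and the 6-base match in 35.0% and 4 members. Each search ran on the strand of the mRNA alone, and a longer match contains the shorter ones. Long 3' UTRs hold it more often. The share with a 7-base match was 1.26% of genes whose longest 3' UTR was under 500 bases, as in DPM1, 4.39% from 500 to 1000 bases, as in PSMD10, 9.30% from 1000 to 2000, as in TBCA through its longest isoform of 1881 bases, and 16.5% from 2000 to 4000, as in TMEM30A.

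Other strands matched fewer members. The seed of the passenger strand had a 7-base match in 7.75% of genes and in 0 of the 4 members. The lower strand of the second siRNA, siBCRP #2, had one in 18.8% of genes and in 2 members, TBCA and TMEM30A, and its upper strand in 17.9% of genes and 0 members. Of 2370 human mature microRNAs in RefSeq, 0 had the seed of the siBCRP #1 guide. The sequence of the control siRNA was not used here, and matches to it were not searched.

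Genes other than the 4 members and ABCG2 showed how mRNAs with this match stood in the same libraries. After siBCRP, 591 of 1555 genes with a 7-base match were lower (38.0%) and 192 were higher (12.4%), compared with 17.5% lower and 24.1% higher among the 11387 genes without it. The median log2 fold change was -0.07 with the match and 0.01 without. By the length of the match the medians were -0.10 for 507 genes with 8 bases, -0.06 for 1048 with 7, -0.03 for 2969 with 6 and 0.03 for 8418 with none. The share more than halved was 6.11%, 2.77%, 1.58% and 0.915% in the same order. The members, at -1.22 to -2.01, lay far out in the tail of their class, which follows from the rule that chose them. Most genes with the match were not halved.

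**Figure D3:**
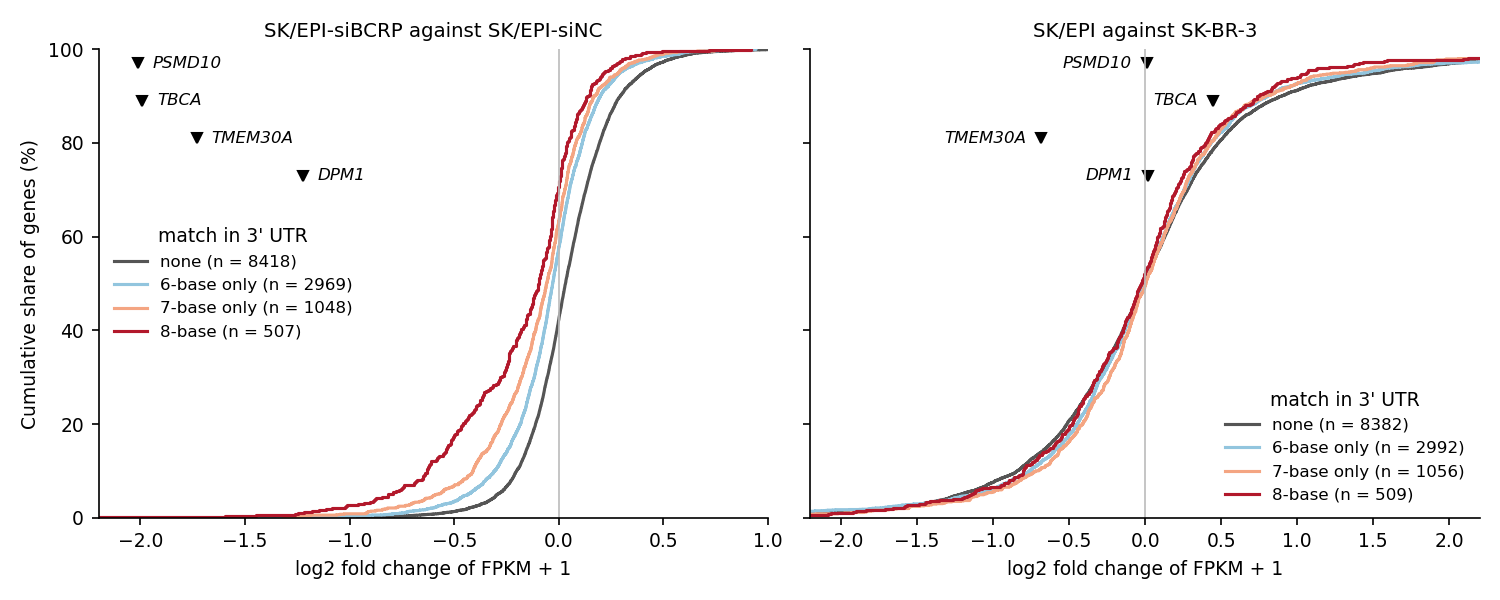
Cumulative share of genes (%) against the log2 fold change of FPKM + 1, by the longest match to the siBCRP #1 guide seed in the 3' UTR, after siBCRP (left) and between SK/EPI and SK-BR-3 (right), with members and ABCG2 left out of the curves and members marked as triangles at arbitrary height. On the left the curves shift stepwise from a median of 0.03 without a match to -0.10 with 8 bases, and on the right the medians lie between -0.03 and 0.01. The places of the members on the left follow from the rule that chose them.

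Between SK/EPI and SK-BR-3 cells, where no siRNA was used, the classes lay together. Of genes with a 7-base match 39.1% were lower and 38.4% higher, compared with 40.1% and 38.6% without it. The difference in medians after siBCRP was seen in each library. Taken against the mean of the control libraries, the median of genes with a 7-base match minus that of genes without was -0.104, -0.0829 and -0.0857 in SK/EPI-siBCRP replicates 1, 2 and 3, a mean of -0.0909 ± 0.0115 (SD, n = 3). Each SK/EPI-siNC library, set against the mean of the other two, gave -0.00815 to 0.00578. The SK/EPI libraries against SK-BR-3 gave -0.0151 to 0.00724. For genes with an 8-base match minus genes without a 7-base match, the SK/EPI libraries gave -0.0461 to -0.0049. SK-BR-3 libraries, each set against the other 2, gave -0.0165 to 0.0227 there, and the SK/EPI-siBCRP libraries -0.139 to -0.0995.

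**Figure D4:**
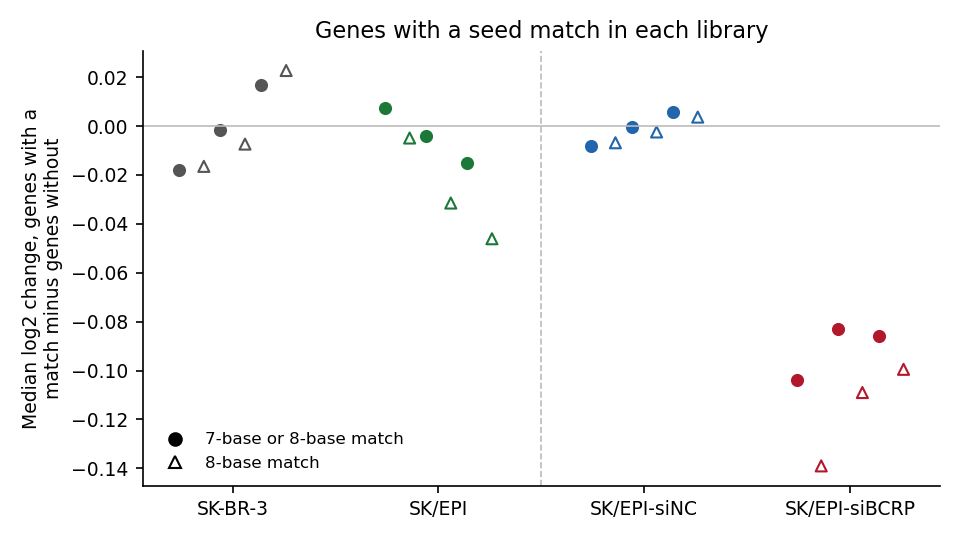
Median log2 change of genes with a seed match minus that of genes without a 7-base match, for each library (filled circles, 7-base or 8-base match, and open triangles, 8-base match), with members and ABCG2 left out. Treated libraries are set against the mean of their control group and each control library against the mean of the other two, and the 3 SK/EPI-siBCRP libraries lie from -0.104 to -0.0829 for the circles while all other circles lie between -0.0179 and 0.0169.

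Since 3' UTR length differed between the classes, with medians of 3127 bases for genes with a 7-base match and 1443 for genes without, the classes were also compared within ranges of length. Genes with the match had the lower median in each range, at -0.13 compared with 0.03 under 500 bases, -0.04 and 0.03 from 500 to 1000, -0.06 and 0.01 from 1000 to 2000, -0.09 and 0.01 from 2000 to 4000, and -0.06 and -0.00 from 4000 bases. The first range held only 26 genes with the match. Matches to the other strands went with smaller differences. The medians were -0.02 with the passenger strand's 7-base match and 0.01 without it, and -0.01 with and 0.01 without that of the siBCRP #2 lower strand.

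Among genes with at least 10 FPKM and an annotated 3' UTR, 17 of 40 more than halved genes other than the members and ABCG2 held the 7-base match, 42.5%, compared with 377 of 4204 genes that were not halved, 8.97%. The remaining 23 halved genes without the match included STMN1, PGRMC1 and PSMB2. BOLA2B and LAMP1, named after their values were seen, hold the places between ABCG2 and PSMD10, with 10.1% and 17.1% of the control. LAMP1 holds the 8-base match and BOLA2B none, and the reads of BOLA2B may be shared with its near-identical neighbour BOLA2. Whether the siRNA bound any of these mRNAs was not measured, and the part of the seed match in the levels of the 4 genes was not tested.

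For each member the test results of its partner genes were counted, beside a background of 37.9% higher and 37% lower between SK/EPI and SK-BR-3, and 19.4% higher and 18.7% lower after siBCRP. After siBCRP, the proteasome genes, 41 subunits and assembly chaperones, were more often higher than lower. Of these, 17 were higher, 7 were lower and 17 did not pass the test, with a median log2 fold change of 0.09 beside -0.00 for all genes tested. Without SK/EPI-siBCRP replicate 3 the number higher was 11, and with no filter on low reads it was 12, with 7 lower in both. PSMC4, the ATPase that gankyrin holds, rose from 38.9 ± 0.358 to 49.6 ± 1.45 FPKM (SD, n = 3 each, log2 fold change 0.34, limma adjusted p = 7.1e-05), the largest rise of the list on the log2(FPKM + 1) scale. PSMD14, the deubiquitinase of the lid, and ADRM1, a ubiquitin receptor, followed with 0.26 and 0.23.

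PSMB2, a subunit of the 20S core, was the largest fall of the proteasome list, from 19.2 to 8.75 FPKM (log2 fold change -1.05, limma adjusted p = 7e-06), with no 7-base match in its 3' UTR. SEM1, a small lid subunit, and PSMG3, a chaperone of the core, fell by 0.42 and 0.34. Between SK/EPI and SK-BR-3 cells the same list went down, with 31 lower, 5 higher and 5 not passing, and a median of -0.51 beside 0.01 for all genes tested. The number higher was 3 without SK-BR-3 replicate 3, SK/EPI replicate 2 or SK/EPI replicate 3. PSMD3 fell by 2.10 there, PSMC1 by 1.32 and PSMD5 by 1.11, and PAAF1, PSMA3 and PSMC6 rose by 0.78, 0.29 and 0.27. PSMC4 was among those that fell, by 0.51, while PSMD10 did not pass the test in this comparison.

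Genes of the growth control proteins tied to gankyrin did not pass the test after siBCRP. Of RB1, CDK4 and MDM2, 0 were called by limma on log2(FPKM + 1), 0 by limma's voom, and 0 had an unadjusted p under 0.05. RB1 was at 94.3% of the control, CDK4 at 98.5% and MDM2 at 92.8%. CDK4 holds the 8-base match. In SK/EPI compared with SK-BR-3 cells, CDK4 rose by 0.60, RB1 fell by 0.73, and MDM2, at 0.06, did not pass (limma adjusted p = 0.24).

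For TBCA the list held the other tubulin cofactors, tubulins, prefoldin and CCT, 30 genes in all. After siBCRP 10 were higher, 4 lower and 16 did not pass, with a median log2 fold change of 0.02. Without SK/EPI-siNC replicate 2, 7 were higher and 2 lower, and 2 were also the number lower without SK/EPI-siNC replicate 1 or SK/EPI-siBCRP replicate 3. TBCD, the cofactor that receives beta-tubulin after TBCA, was at 9.49 ± 0.170 FPKM in the control and 9.77 ± 0.185 after siBCRP (SD, n = 3 each, limma adjusted p = 0.36). TBCB, which binds alpha-tubulin, rose by 0.19 and TBCC, which completes the release of the dimer, fell by 0.16. TBCE is annotated as a pair of overlapping genes, so its level of 0.372 FPKM after siBCRP and 0.382 in the control is uncertain.

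Among the tubulins, TUBA1B, an abundant alpha-tubulin with a 7-base match, fell by 0.64 after siBCRP, from 116 to 73.7 FPKM, and TUBA1A fell by 0.21 from a level of 0.430 FPKM. The only other gene of the list with the match, the prefoldin subunit PFDN6, named for it, rose by 0.13 (limma adjusted p = 0.041). TUBB4A rose from 0.288 to 1.56 FPKM (log2 fold change 0.99) and the CCT subunit CCT3 by 0.31. TUBB2B, which had few reads in the control and would not have passed the filter on low reads without the siBCRP libraries, was at means of 0.230 and 0.529 FPKM. Between SK/EPI and SK-BR-3, of 29 tested genes 6 were higher, 14 lower and 9 did not pass, with a median of -0.12, while scaling by reads on genes gave 11 higher and 13 lower. TUBA4A, TUBB4B and TUBB fell by 1.11, 0.70 and 0.51, TBCC rose by 0.39 and TBCD fell by 0.32. TUBB3 and TUBB4A, at means of 0.0429 and 0.0162 FPKM in SK-BR-3 and 0.568 and 0.503 FPKM in SK/EPI, passed the filter on low reads only through the SK/EPI libraries. With at least 10 reads required in every library, 4 genes were higher and 14 lower.

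For TMEM30A the list held the P4-ATPases, TMEM30B and the scramblase XKR8. After siBCRP, of 12 tested genes 2 were higher, 5 lower and 5 did not pass, with a median log2 fold change of -0.09. The 3 largest falls were TMEM30B, ATP9A by 0.46 and ATP11B by 0.36, and all 3 hold the 8-base match. ATP11A, which flips phosphatidylserine at the plasma membrane together with TMEM30A and holds no 7-base match, rose by 0.41, from 10.1 ± 0.159 to 13.7 ± 0.311 FPKM (SD, n = 3 each). ATP8B1, which holds a 7-base match, fell by 0.23, and so did ATP10D, which holds none, by 0.23. ATP8A1, with a 7-base match, was at 1.02 ± 0.0390 FPKM in the control and 1.03 ± 0.0728 after siBCRP (SD, n = 3 each), and it did not pass the test, nor did ATP8B4, with a match and at 0.0864 and 0.0664 FPKM. Between SK/EPI and SK-BR-3, of 14 tested genes 7 were higher, 5 lower and 2 did not pass, with a median of 0.02. The number lower was 3 without any 1 of the 3 SK-BR-3 libraries. ATP8B4 was at means of 0.00170 FPKM in SK-BR-3 and 0.0928 in SK/EPI and counted as higher. ATP8A2 and ATP10B, at 0.0652 and 0.130 FPKM in SK-BR-3 and 0.00342 and 0.00157 in SK/EPI, counted as lower. Each of them passed the filter on low reads only through the group where it was high. With at least 10 reads required in every library, 6 genes were higher and 3 lower. ATP11A rose by 0.66, TMEM30B by 0.59 and ATP8B1 by 0.30. ATP11B, ATP8A1 and ATP8B2 fell by 1.11, 1.10 and 0.94.

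For DPM1 the list held 20 genes that make or use dolichol phosphate mannose. After siBCRP 6 were higher, 3 lower and 11 did not pass, with a median log2 fold change of 0.02. Without SK/EPI-siNC replicate 2, 2 were higher and 3 lower, and without SK/EPI-siNC replicate 1 or SK/EPI-siBCRP replicate 3, 3 were higher and 2 lower. Neither other subunit of the synthase was called lower. DPM2 was at 6.26 ± 0.272 FPKM in the control and 6.56 ± 0.163 after siBCRP (SD, n = 3 each, limma adjusted p = 0.32). DPM3, which anchors DPM1 to the membrane, rose by 0.13, from 29.6 ± 0.595 to 32.5 ± 1.69 FPKM (SD, n = 3 each, limma adjusted p = 0.033).

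Among the other genes of the dolichol list, PIGB, a mannosyltransferase of GPI anchors with a 7-base match, fell by 0.38 after siBCRP, and SRD5A3, the polyprenol reductase that makes dolichol, by 0.31. ALG12 and PIGM, named for their 7-base match, did not pass the test, at 0.03 and -0.10 (limma adjusted p = 0.7 and 0.25). POMT2, MPDU1 and DOLK rose by 0.40, 0.31 and 0.23. In SK/EPI compared with SK-BR-3 cells, 14 were lower, 2 higher and 4 did not pass, with a median of -0.37, while scaling by reads on genes gave 13 lower and 4 higher. SRD5A3, DPM2 and POMT1 fell by 2.17, 1.06 and 0.95, and GMPPA and NUS1 rose by 0.45 and 0.34. DPM2 thus went from 14.7 ± 0.587 to 6.51 ± 0.118 FPKM (SD, n = 3 each), while DPM3 was at 39.9 ± 0.894 and 40.1 ± 0.440 FPKM (limma adjusted p = 0.85).

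**Figure D5:**
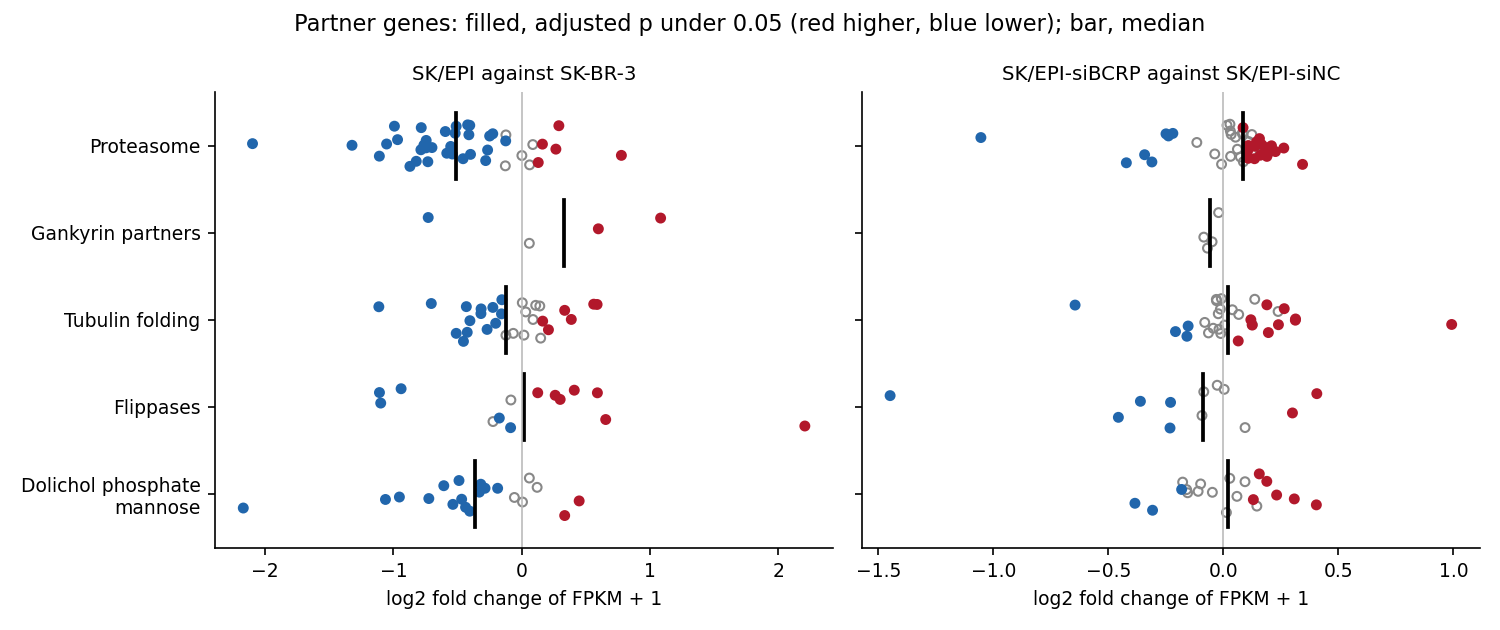
log2 fold change of FPKM + 1 for the genes of the 5 partner lists, one point per gene, between SK/EPI and SK-BR-3 (left) and after siBCRP (right), filled where the limma adjusted p is under 0.05, with a black bar at the median of each list. The proteasome median is -0.51 on the left and 0.09 on the right, and after siBCRP the 5 medians lie between -0.09 and 0.09.

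The genes whose pattern over the 12 libraries was most like that of a member were found by the root mean square difference of log2(FPKM + 1), centred within each table, among 15152 genes tested in both. For PSMD10 they were TRIAP1 (0.177) and RAP2C (0.264), and for TBCA TRIAP1 (0.180) and TMEM30B (0.205). STMN1 (0.114) and PGRMC1 (0.152) were nearest to TMEM30A, and THAP11 (0.0683) and RAB2A (0.0693) to DPM1. After siBCRP they kept between 28.4% (TRIAP1) and 44.4% (RAB2A) of the control. A fall there follows from the search, which used the siRNA libraries that chose the members. The 8-base match is in TRIAP1, TMEM30B and THAP11 and the 7-base match in RAB2A, and RAP2C, STMN1 and PGRMC1 hold neither. The 7-base match was in 12% of tested genes with an annotated 3' UTR. It was in 47.7% of those more than halved with at least 10 FPKM, members included and ABCG2 left out.

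The libraries held 15830381 to 20545811 reads on genes, so the members rested on 136 reads or more in each. As a share of the total used for the authors' scaling, reads on genes made up 99.8% to 101% in SK-BR-3, 92.8% to 95.4% in SK/EPI, 89.5% to 90.1% in SK/EPI-siNC and 90.4% to 90.7% in SK/EPI-siBCRP, which bears on levels between the lines more than on those between the siRNAs. The epithelial markers KRT8, KRT18, KRT19 and EPCAM and the receptor ERBB2 were abundant in each group. ERBB2 ranged over group means from 96.8 to 659 FPKM, with the lower values in the SK/EPI groups, and EPCAM from 74.4 to 91.7. CDH1, which luminal cells usually express, was absent or at most 0.121 FPKM. The estrogen receptor gene ESR1, another luminal marker, was at group means of 0.0317 to 0.319 FPKM, and the progesterone receptor gene PGR at 0.00114 or less. The leukocyte marker PTPRC and the endothelial marker PECAM1 stayed at group means of at most 0.0503 and 0.196 FPKM, and the fibroblast collagens COL1A1 and COL3A1 at 1.57 and 0.325 or less.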

How the data were processed

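Poly-A RNA libraries were made with the NEBNext Ultra kit, and the submitters' processing notes name HISAT2 2.0.5, featureCounts 1.5.0-p3, DESeq2 1.16.1 and hg38, with no role or order. The values deposited by the authors are FPKM, in 2 tables of 58735 genes, each normalized on its own. The unit is not written in them. It was read from the values, since each value times the merged exon length of its gene (GENCODE 29) was a whole multiple of 1 step per library (100% within tolerance), which also gave the reads per gene, 15830381 to 20545811 per library. The counting of strand is not given in the sources used here.

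A gene was tested if 3 or more libraries reached 10 reads, counted at the median depth, and all libraries together 15, each table alone, with limma 3.58.1 (lmFit, eBayes with a trend, R 4.3.3) on log2(FPKM + 1), with group as the only term and Benjamini-Hochberg adjustment at 0.05. limma is named beside p-values in the text, and the steps were tested on simulated data. The study's methods give no model for these libraries. Within groups, pairs of libraries varied beyond counting error (chi-square per degree of freedom 1.641 to 4.272). Same-numbered libraries deviated together little or not at all (correlations -0.0473, 0.0104 and -0.09 between the lines, 0.0192, 0.108 and 0.000284 between the siRNAs). Between the siRNAs the mean was 0.0426 for the same numbers and -0.0213 for different numbers. Pairing by number is not excluded by these values.

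3' UTRs were those of GENCODE 29 transcripts with an annotated stop codon, searched on the mRNA strand with Python 3.11.15. The siRNA strands came from the study's supplement and microRNAs from RefSeq. The members and lists were chosen with earlier results of these data known. Besides the members and ABCG2, the text names their annotated copies and paralogs, their direct partners, up to 3 listed genes a list and direction with the largest changes past the test, the genes nearest to a halving and the most similar genes. Others are marked. Some listed genes counted here are not reported by name. Alternatives were a pseudocount of 0.1, other filters, other scalings, limma's voom on recovered reads, a replicate block and leaving out each library. No columns were left out.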

Additional observations from a re-analysis of the deposited data

How the results depend on the processing

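Of 291 recomputed values, 266 were counted as alike in direction, side of the threshold and size, with a wide allowance for size. Among these, the genes called after siBCRP numbered 4654 with no filter, in place of 6215. The dolichol genes called there numbered 12 with voom, in place of 9. The fall of TMEM30A and the rise of TBCA between SK-BR-3 and SK/EPI passed the test under every alternative run, at -0.70 to -0.65 and 0.39 to 0.47 with each library left out in turn. PSMD10 there ranged from -0.03 to 0.04 with a library left out, turning negative without SK-BR-3 replicate 1 (-0.03) and without SK/EPI replicate 3 (-0.01). DPM1 ranged from -0.01 (without SK-BR-3 replicate 3) to 0.06, and was 0.11 and past the threshold when scaled by reads on genes and with voom. After siBCRP the log2 differences grew with a pseudocount of 0.1, to -2.28 for PSMD10, -2.12 for TBCA and -1.88 for TMEM30A, and with voom, to -2.32, -2.15 and -1.9, since a pseudocount of 1 shrinks low genes. With no filter, 9 tubulin and 4 dolichol genes were called after siBCRP, in place of 14 and 9. With a library left out these counts were 9 to 13 and 5 to 9. The tubulin count was lowest without SK/EPI-siNC replicate 2, and the dolichol count was 5 without SK/EPI-siNC replicate 1, SK/EPI-siNC replicate 2 or SK/EPI-siBCRP replicate 3. With voom, 6 dolichol genes were higher and 6 lower. The cause was not tested. The number of members with a match was 1 for 8 bases, 0 for the passenger strand and 2 for the siBCRP #2 lower strand.

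The difference in median between genes with a 7-base match and without, -0.085 after siBCRP, was -0.13 with a pseudocount of 0.1, -0.136 with voom and -0.037 with no filter, alternatives chosen after seeing the data, and -0.091 to -0.083 with a library left out. Between the lines it was 0.001, and 0.021 with at least 10 reads in every library, and -0.002 to 0.012 with a library left out. With the replicate block 11656 genes were called between the lines (5889 higher, 5767 lower) and 5640 after siBCRP (2896 and 2744), and the members' calls did not change (adjusted p from limma 0.00033 for TBCA, 4.91e-05 for TMEM30A, 0.833 for PSMD10 and 0.702 for DPM1). The numbers share no source in the labels. At 136 to 192 reads, PSMD10 after siBCRP is the least precise of the members.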
